A study of Homo sapiens with 12 samples.

Results

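HES1, HES4, HES6, HEY1, HEY2, NRARP, NOTCH1, NOTCH2, NOTCH3 and JAG1 are 10 genes of the Notch pathway, and their transcript levels were followed in HEK293 cells given TNFα, the Mediator kinase inhibitor Senexin B, or both. They were chosen by symbol as Notch targets and pathway components, and they make up 10 of the 56634 genes in the count table and 10 of the 14822 genes with enough counts to be tested. RNA was sequenced in bulk from 12 libraries, with 3 libraries called biological replicates in each of 4 groups. Ctrl cells were kept in 0.1% DMSO for 3 h. SnxB cells received 1 µM Senexin B for 3 h. Tnf cells were held in 0.1% DMSO for 1 h and then exposed to 10 ng/mL TNFα for 2 h. TnfSnxB cells were held in 1 µM Senexin B for 1 h and then exposed to 10 ng/mL TNFα for 2 h with the inhibitor still present. All groups were unmodified HEK293 cells in high-glucose medium with serum, and the labels name no added Notch ligand or transgene. The labels do not say how the replicate cultures were separated, so the p-values below measure the spread between these libraries, which may in part be technical.

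HEK293 is an established line of human embryonic kidney origin that was transformed with adenovirus DNA. In the Notch pathway a ligand such as JAG1 on one cell binds a NOTCH receptor on its neighbour, and cleavage of the receptor by ADAM proteases and γ-secretase frees its intracellular domain, which enters the nucleus and joins the DNA-binding protein RBPJ and a Mastermind coactivator. HES and HEY genes, which encode basic helix-loop-helix repressors, and NRARP, which encodes a small ankyrin-repeat protein that limits Notch signalling, are well-known targets of that complex. CDK8 and CDK19 are the kinases of the Mediator kinase module, and CDK8 with cyclin C is known to phosphorylate the NOTCH intracellular domain, which the ubiquitin ligase subunit FBXW7 then marks for degradation. TNFα is an inflammatory cytokine that acts mainly through NF-κB.

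The promoters of HES1, HES4 and NRARP are printed first because these genes are textbook RBPJ targets whose upstream windows differ in the sites they hold. Each line gives the 250 bases before the RefSeq start, 5′ to 3′ on the gene's strand, and capitals mark every match to GTGNGAA, the RBPJ site, on either strand. The windows are chr3:194135898-194136147 on the plus strand for HES1, chr1:1000098-1000347 on the minus strand for HES4 and chr9:137302272-137302521 on the minus strand for NRARP, all in RefSeq's GRCh38.p14 table.
HES1: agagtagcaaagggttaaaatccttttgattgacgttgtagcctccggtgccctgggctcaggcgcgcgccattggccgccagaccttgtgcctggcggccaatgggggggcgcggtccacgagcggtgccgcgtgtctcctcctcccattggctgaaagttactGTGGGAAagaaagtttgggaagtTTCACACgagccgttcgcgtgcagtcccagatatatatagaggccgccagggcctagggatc
HES4: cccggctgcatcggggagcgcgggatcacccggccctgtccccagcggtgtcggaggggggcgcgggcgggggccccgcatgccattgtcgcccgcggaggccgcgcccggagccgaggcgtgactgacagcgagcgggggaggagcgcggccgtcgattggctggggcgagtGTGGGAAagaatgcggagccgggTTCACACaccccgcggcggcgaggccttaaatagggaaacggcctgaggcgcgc
NRARP: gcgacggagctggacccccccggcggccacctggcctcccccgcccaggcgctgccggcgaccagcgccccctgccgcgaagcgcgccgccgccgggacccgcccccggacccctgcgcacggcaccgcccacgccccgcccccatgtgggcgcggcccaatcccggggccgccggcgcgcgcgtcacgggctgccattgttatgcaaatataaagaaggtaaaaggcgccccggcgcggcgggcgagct
In HES1 a forward and a reverse site face each other from 85 to 56 bases upstream of the start, with 16 bases between them. HES4 holds the same arrangement from 77 to 48 bases upstream, also with 16 bases between the sites. A head-to-head GTGNGAA pair with a spacer of 15 to 17 bases was found in 4 of 35116 RefSeq promoter windows (0.0114%), and the other windows belonged to ITIH4 and PLPPR5-AS1. A window was given for 9 of the 10 genes, all but HEY1. Of these 9, HES1, HES4 and HEY2 held GTGNGAA on at least 1 strand, against 11.6% of all windows, and the same 3 genes held the shorter core TGGGAA, against 20.8%. The HES and HEY E-box CACGTG occurred in none of the 9 and in 6.34% of all windows, the HES site CACGCG occurred in HES1 and in 9.72% of all windows, and the N-box CACNAG occurred in HES1 and NOTCH3 and in 32% of all windows. Both strands were searched, TGGGAA can lie within GTGNGAA, and a match describes letters in these windows only.

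Library totals ran from 8705277 to 50943310 counts, and the deepest library was Tnf replicate 2. Of 6 HEK293 markers 4 passed the count filter, while NEFM and PAX2 averaged under 1 CPM in Ctrl. The summed level of all 6 was 788 to 812 CPM in Ctrl, 825 to 834 CPM in Tnf, 714 to 761 CPM in SnxB and 730 to 752 CPM in TnfSnxB. That sum was lower in the 6 libraries with Senexin B, and its part in the results below was not tested. The 5 leukocyte markers summed to at most 1.06 CPM in a library with CD3E at 0, the 3 endothelial markers to at most 0.528 CPM with CDH5 at 0, and the 3 fibroblast markers to 13.7 to 17.2 CPM, nearly all of it COL1A1, with DCN at 0. NFKBIA, an NF-κB target used to check the TNFα labels, had 25.2 to 32.6 CPM in the 6 libraries without TNFα and 165 to 272 CPM in the 6 with it.

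TnfSnxB replicates 2 and 3 stood apart from TnfSnxB replicate 1, and the gap followed the GC content of the transcripts. Set against replicate 1, their counts gave chi-square values of 5.785 and 5.507 per degree of freedom, where every other pair of replicates gave 1.065 to 1.593. Over 10 bins of 1341 to 1343 genes ordered by GC content, the median log2 difference of replicates 2 and 3 from replicate 1 went from 0.22 in the bin of lowest GC content to -0.25 in the bin of highest. The 10 Notch pathway genes span 47.3% GC (HEY1) to 73.9% GC (HES4) in their longest transcript, and Spearman's rho between GC content and the gap was -0.927 over them and -0.653 over 13419 genes. HES4 (-0.50), HES6 (-0.37) and NOTCH1 (-0.35) had the widest log2 gaps, HES1 (-0.07), HEY1 (0.05) and HEY2 (0.06) had narrow ones, and NRARP, at 67.3% GC, had -0.13. The comparisons that use the TnfSnxB group were therefore repeated without replicates 2 and 3, and with counts corrected for GC content and length in each library.

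**Figure D1:**
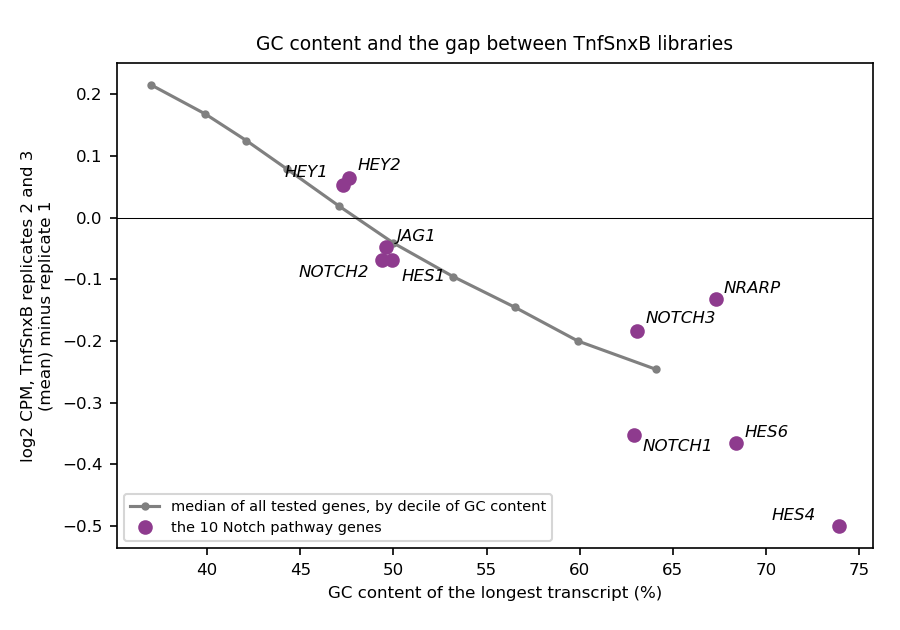
GC content of the longest transcript (x axis, percent) against the log2 CPM difference of TnfSnxB replicates 2 and 3 (mean) from TnfSnxB replicate 1 (y axis), with 1 point per Notch pathway gene and a grey line for the median of all tested genes in 10 bins of GC content. HES4, HES6 and NOTCH1 lie below -0.3, while HES1, HEY1, HEY2, NOTCH2 and JAG1 lie within 0.1 of 0.

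Per kb of exon, HES4 had the highest level of the 10 genes in Ctrl at 156 ± 16.6 CPM per kb (mean ± SD, n = 3). It was followed by HES1 at 29.7 ± 0.833, NRARP at 23.2 ± 2.49, HEY1 at 15.8 ± 1.36, HES6 at 14.6 ± 0.979 and NOTCH2 at 13.4 ± 0.536 CPM per kb. HEY2 (5.56 ± 0.456), NOTCH3 (4.13 ± 0.049), JAG1 (3.23 ± 0.463) and NOTCH1 (3.21 ± 0.134) were the lowest on the same scale. Among neighbours in this order, the Ctrl libraries of HEY1 and HES6 overlapped, as did those of JAG1 and NOTCH1. The order differed between groups for NRARP, HEY1 and HES6, and for NOTCH1 and JAG1. In Tnf, NRARP (33.9 ± 0.42 CPM per kb) stood above HES1 (28.7 ± 0.917) in every library, and in TnfSnxB the libraries of NRARP (21.1 ± 1.34) and HES1 (20.5 ± 0.581) overlapped. HEY1 was above NOTCH2 in every Ctrl library and below it in every SnxB library (11.4 ± 1.49 against 13.9 ± 0.042 CPM per kb) and every TnfSnxB library (8.53 ± 0.485 against 13.8 ± 0.42), while their Tnf libraries overlapped. HES6 was also above NOTCH2 in every Ctrl library, and the libraries of the 2 genes overlapped in each of the other groups. NOTCH1 was above JAG1 in every Tnf library (3.28 ± 0.0485 against 3.01 ± 0.101 CPM per kb).

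**Figure D2:**
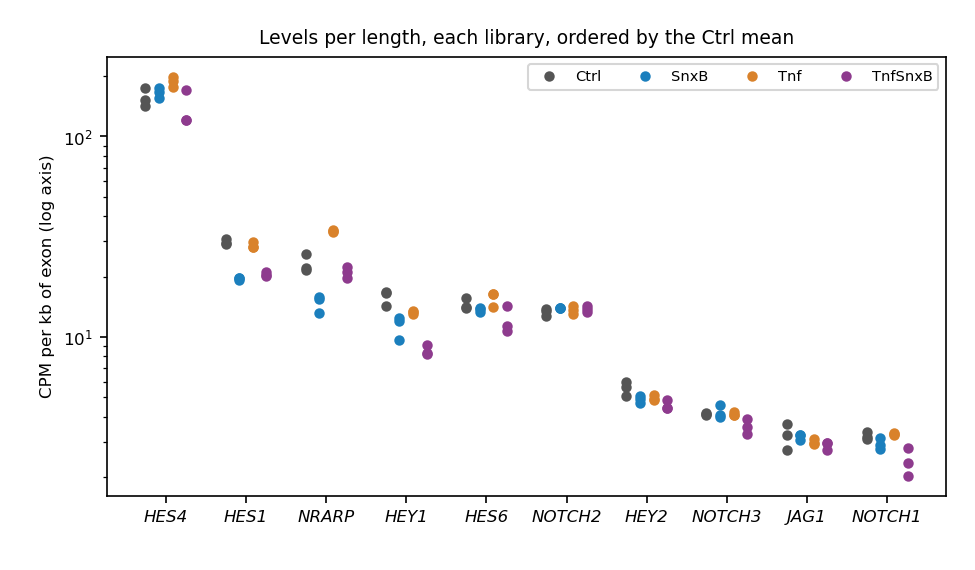
Level of each Notch pathway gene in CPM per kb of exon (y axis, log axis) in every library, with genes on the x axis ordered by their Ctrl mean and colours for the 4 groups. HES4 lies above all other genes in all 12 libraries, and NRARP spans the range from below HES1 in SnxB to above it in Tnf.

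A gene was called where its adjusted p in the edgeR quasi-likelihood test was under 0.05 over all 14822 genes. Senexin B without TNFα lowered 3 of the 10 genes, HES1, HEY1 and NRARP, and raised none, where 2.03% of all tested genes were called in either direction. In TNFα-treated cells 7 of the 10 were lower with Senexin B and none higher, but 27.2% of all genes were called in that comparison, and the 7 became 4 after correction for GC content and length (HES1, HEY1, NRARP and NOTCH1) and 3 without TnfSnxB replicates 2 and 3 (HES1, HEY1 and NRARP). The share of all genes called for Senexin B with TNFα dropped as well, to 12.2% when the corrected counts were used. That share was also smaller without TnfSnxB replicates 2 and 3. TNFα without Senexin B raised NRARP and lowered HEY1, 2 of the 10, where 2.02% of all genes were called. With Senexin B present TNFα raised NRARP and lowered HEY1, HES4, NOTCH1 and NOTCH3, 5 of the 10, where 14.2% of all genes were called, and under either of the same 2 treatments of the TnfSnxB libraries only NRARP and HEY1 were left. For TNFα with Senexin B the share of all genes dropped from 14.2% to 5.03% when the corrected counts were used. It too was smaller without those replicates. The median log2 fold change of the 10 genes was -0.10 for Senexin B alone and -0.41 for Senexin B with TNFα, beside 0.00 over all tested genes in each case. The -0.41 became -0.11 after correction for GC content and length, -0.16 without TnfSnxB replicates 2 and 3 and -0.46 without TnfSnxB replicate 1.

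HES1, the basic helix-loop-helix repressor that serves as the standard readout of Notch activity, fell with Senexin B whether or not TNFα was present and showed no detectable response to TNFα. Its level was 60.7, 59.9 and 63.2 CPM in Ctrl replicates 1 to 3 and 40.6, 40.8 and 39.6 CPM in SnxB. It was 58.0, 58.1 and 61.3 CPM in Tnf and 43.7, 41.8 and 41.5 CPM in TnfSnxB. All 6 libraries with Senexin B were below all 6 without it, whatever their TNFα status. Without TNFα the log2 fold change for Senexin B was -0.60 (SE 0.057, 95% interval -0.72 to -0.49, adjusted p = 1.28e-08), which is 1.52-fold lower. With TNFα it was -0.48 (SE 0.053, interval -0.59 to -0.38, adjusted p = 1.34e-07), 1.4-fold lower. The TNFα effect on HES1 was -0.06 without Senexin B (interval -0.16 to 0.05, adjusted p = 0.793) and 0.07 with it (interval -0.06 to 0.19, adjusted p = 0.496). HES1 lies at chr3:194136145-194138732 in GENCODE 29 with 49.9% GC and a narrow gap between the TnfSnxB libraries, and both falls kept their call in all 20 alternatives. In these bulk libraries fewer expressing cells and less RNA per cell cannot be told apart, for HES1 or any gene below.

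NRARP, the feedback inhibitor that binds the NOTCH and RBPJ complex, was the 1 gene of the 10 called higher with TNFα, and it fell with Senexin B. Its level was 38.0, 46.1 and 38.9 CPM in Ctrl and 60.8, 59.9 and 59.3 CPM in Tnf. With Senexin B it was 28.1, 23.4 and 27.2 CPM in SnxB and 39.6, 37.5 and 34.9 CPM in TnfSnxB. The Tnf libraries were the highest and the SnxB libraries the lowest of all 12, and the Ctrl and TnfSnxB libraries overlapped between them. TNFα raised NRARP 1.47-fold without Senexin B (log2 0.55, SE 0.066, interval 0.42 to 0.69, adjusted p = 1.1e-06) and 1.42-fold with it (log2 0.51, SE 0.082, interval 0.34 to 0.67, adjusted p = 0.000154). Senexin B lowered it 1.56-fold without TNFα (log2 -0.64, SE 0.081, interval -0.81 to -0.48, adjusted p = 3.21e-06) and 1.61-fold with TNFα (log2 -0.69, SE 0.066, interval -0.83 to -0.56, adjusted p = 1.12e-08). The difference between these effects, the interaction, was -0.05 (interval -0.27 to 0.17, adjusted p = 0.822), so no change in the size of either effect was detectable. With the GC content and length correction the NRARP interaction was 0.25 (adjusted p = 0.264). All 4 calls held in all 20 alternatives, but correction for GC content and length moved the Senexin B effect with TNFα to -0.40 and the TNFα effect with Senexin B to 0.73, in a single-exon gene (chr9:137300482-137302251) of 67.3% GC.

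HEY1, a repressor of the related HEY family that can pair with HES proteins, fell with Senexin B and fell further with TNFα. Its level was 53.2, 46.0 and 53.9 CPM in Ctrl and 38.9, 40.1 and 31.2 CPM in SnxB. It was 43.5, 42.3 and 42.9 CPM in Tnf and 26.9, 26.5 and 29.4 CPM in TnfSnxB. The lowest Ctrl library was above the highest Tnf library, the lowest Tnf library was above the highest SnxB library, and all SnxB libraries were above all TnfSnxB libraries. Senexin B lowered HEY1 1.39-fold without TNFα (log2 -0.48, SE 0.077, interval -0.63 to -0.32, adjusted p = 0.000195) and 1.54-fold with TNFα (log2 -0.63, SE 0.075, interval -0.78 to -0.47, adjusted p = 8.58e-07). TNFα lowered it 1.33-fold in the presence of Senexin B (log2 -0.41, SE 0.084, interval -0.58 to -0.24, adjusted p = 0.00226), and these 3 calls held in all 20 alternatives. The fall with TNFα alone was smaller and close to the threshold (1.2-fold, log2 -0.26, SE 0.069, adjusted p = 0.0418). That call was lost in 9 of 20 alternatives, with log2 values from -0.32 to -0.22 over all 20. Among single libraries it was lost without Ctrl replicate 1 (adjusted p = 0.294), Ctrl replicate 3 (0.311), SnxB replicate 1 (0.0592), Tnf replicate 1 (0.105), Tnf replicate 2 (0.31) or Tnf replicate 3 (0.134). It was kept after correction for GC content and length (log2 -0.26, adjusted p = 0.00133) and without TnfSnxB replicate 1 (log2 -0.26, adjusted p = 0.000179). Without TnfSnxB replicates 2 and 3 the log2 value was -0.26.

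HEY2, the second HEY gene and the least counted of the 10, passed the test in no comparison. Its level was 16.3, 13.9 and 15.5 CPM in Ctrl, 13.9, 12.8 and 13.4 CPM in SnxB, 13.3, 13.4 and 14.1 CPM in Tnf, and 12.2, 12.2 and 13.3 CPM in TnfSnxB. The treated groups each overlapped the group they were compared with. Its log2 fold change was -0.20 for Senexin B alone (interval -0.39 to 0.00, adjusted p = 0.421) and -0.10 for Senexin B with TNFα (interval -0.28 to 0.08, adjusted p = 0.411). For TNFα alone it was -0.18 (interval -0.35 to 0.00, adjusted p = 0.484). The counts behind these values were 111 to 188 in the libraries other than Tnf replicate 2, and falls as large as those of HEY1 with Senexin B lie outside the 2 Senexin B intervals.

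**Figure D3:**
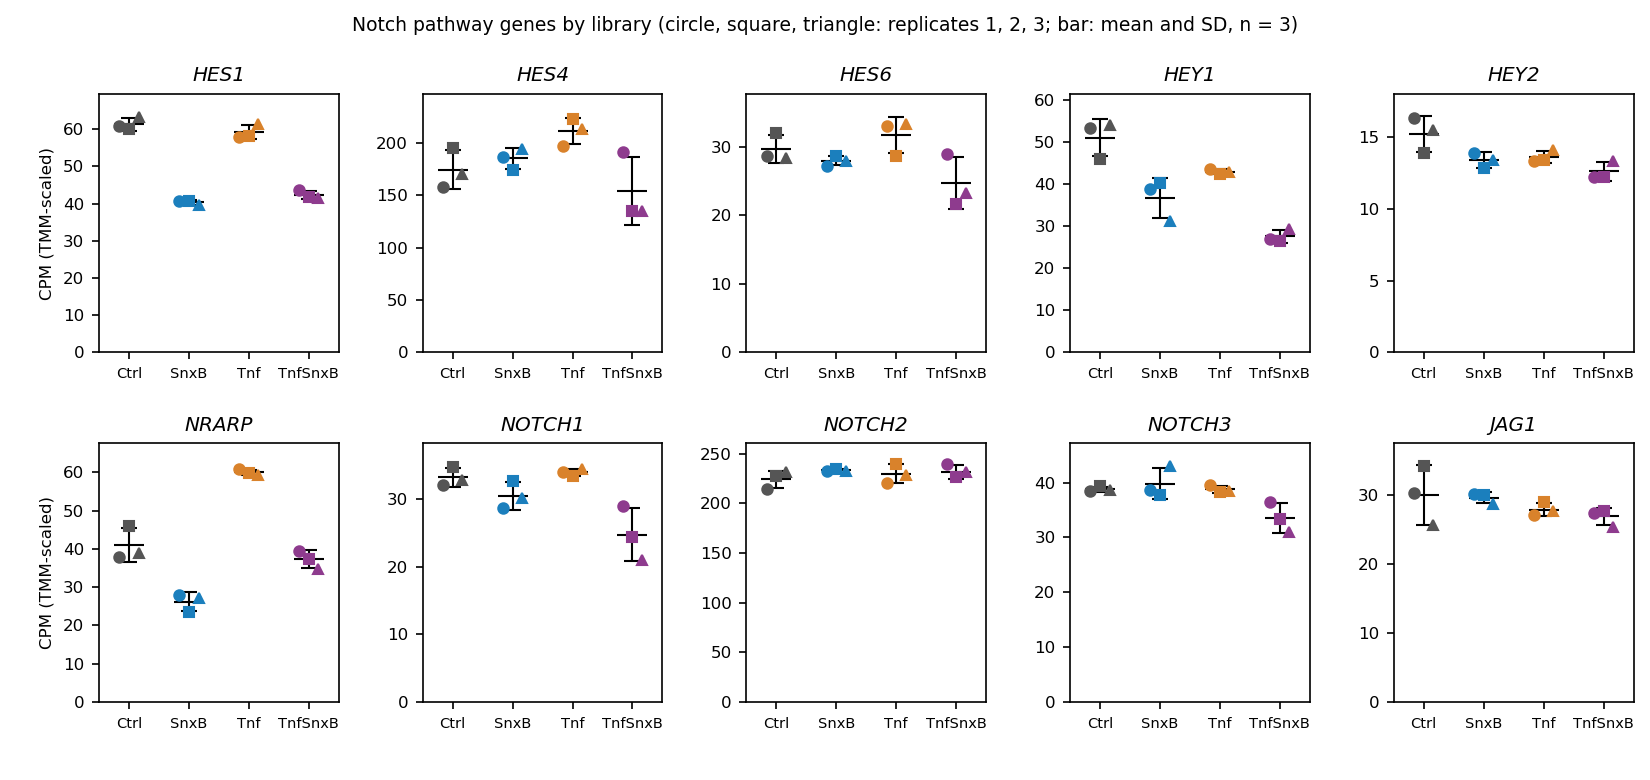
TMM-scaled CPM (y axis, from 0) of each Notch pathway gene in all 12 libraries by group, with circles, squares and triangles for replicates 1, 2 and 3 and bars for mean ± SD (n = 3). HES1 falls in both groups with Senexin B, and NRARP is highest in Tnf and lowest in SnxB. TnfSnxB replicate 1 lies above replicates 2 and 3 for HES4, HES6, NOTCH1 and NOTCH3. It also does so, by a smaller proportion, for HES1, NRARP and NOTCH2.

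HES4 and HES6 are the other HES genes, HES4 a repressor close to HES1 and HES6 a member known to counter HES1, and both have transcripts of high GC content (73.9% and 68.4%). HES4 was at 158, 195 and 170 CPM in Ctrl, 186, 174 and 194 CPM in SnxB, 197, 222 and 213 CPM in Tnf, and 191, 135 and 135 CPM in TnfSnxB. The Ctrl and SnxB libraries overlapped, all 3 Tnf libraries lay above all 3 Ctrl libraries, and TnfSnxB replicate 1 sat among the SnxB libraries while replicates 2 and 3 were the lowest of the 12. Senexin B alone left HES4 at a log2 fold change of 0.09 (SE 0.085, interval -0.09 to 0.26, adjusted p = 0.766), an interval that does not reach the -0.60 of HES1, the other gene with a facing site pair in the windows printed above. In TNFα-treated cells HES4 was 1.39-fold lower with Senexin B (log2 -0.48, SE 0.082, adjusted p = 0.000147), which became -0.10 after correction for GC content and length (adjusted p = 0.123) and -0.16 without TnfSnxB replicates 2 and 3 (adjusted p = 0.085). TNFα alone gave HES4 a log2 fold change of 0.28 (SE 0.082, interval 0.12 to 0.45, adjusted p = 0.0711), short of the threshold here and past it in 8 of 20 alternatives. Among these were the fit to only the groups compared (log2 0.30, adjusted p = 1.8e-09) and the correction for GC content and length (log2 0.17, adjusted p = 0.00845). The rise was also called without Ctrl replicate 2 (adjusted p = 0.0218) or TnfSnxB replicate 2 (0.0264). Without TnfSnxB replicates 2 and 3 the log2 value was 0.30. The fall with TNFα in the presence of Senexin B (log2 -0.28, adjusted p = 0.0289) turned to 0.01 after the correction and to 0.05 without replicates 2 and 3, and that call was also lost without SnxB replicate 1 (adjusted p = 0.0916), SnxB replicate 3 (0.139), TnfSnxB replicate 2 (0.182) or TnfSnxB replicate 3 (0.213).

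HES6 was at 28.7, 32.0 and 28.4 CPM in Ctrl, 27.2, 28.6 and 28.0 CPM in SnxB, 33.1, 28.7 and 33.4 CPM in Tnf, and 29, 21.7 and 23.3 CPM in TnfSnxB. Ctrl overlapped both SnxB and Tnf, and TnfSnxB replicate 1 lay within the range of those groups, with replicates 2 and 3 below it. Its log2 fold change for Senexin B was -0.08 without TNFα (interval -0.26 to 0.10, adjusted p = 0.805) and -0.34 with it (SE 0.082, adjusted p = 0.00307). The latter became -0.01 after correction for GC content and length (adjusted p = 0.935) and -0.07 without TnfSnxB replicates 2 and 3 (adjusted p = 0.855).

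Of the receptors, NOTCH2 passed the test in no comparison, and NOTCH1 and NOTCH3 were called lower in TnfSnxB against Tnf and against SnxB and were not called in the other comparisons, the interaction included. NOTCH2 was at 214, 227 and 232 CPM in Ctrl, 233, 235 and 233 CPM in SnxB, 220, 240 and 229 CPM in Tnf, and 240, 226 and 232 CPM in TnfSnxB. Its log2 fold changes over the 4 simple comparisons ran from -0.01 to 0.06, the lowest adjusted p was 0.646, and the widest 95% interval among them, that for Senexin B alone, ran from -0.03 to 0.15. NOTCH2NL, a near-identical partial copy of NOTCH2, had 1 to 15 counts in a library, at most 0.195% of the NOTCH2 count, and how reads shared by the copies were counted is not known. NOTCH1 was at 32.1, 34.8 and 32.9 CPM in Ctrl, 28.7, 32.7 and 30.2 CPM in SnxB, 34.0, 33.5 and 34.5 CPM in Tnf, and 29, 24.4 and 21.1 CPM in TnfSnxB. All TnfSnxB libraries were below all Tnf libraries, and the Senexin B effect with TNFα was -0.47 (SE 0.077, adjusted p = 8.1e-05) against -0.12 without it (interval -0.29 to 0.05, adjusted p = 0.635). The NOTCH1 fall was still called after correction for GC content and length (log2 -0.28, adjusted p = 0.00085) and was not without TnfSnxB replicates 2 and 3 (log2 -0.22, adjusted p = 0.279).

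NOTCH3 was at 38.4, 39.3 and 38.7 CPM in Ctrl, 38.6, 37.7 and 43.1 CPM in SnxB, 39.5, 38.3 and 38.5 CPM in Tnf, and 36.5, 33.3 and 31.0 CPM in TnfSnxB. All 3 TnfSnxB libraries were the lowest of the 12. Senexin B with TNFα gave a log2 fold change of -0.21 (SE 0.064, adjusted p = 0.0144), which became -0.02 after correction for GC content and length (adjusted p = 0.897) and -0.08 without replicates 2 and 3 (adjusted p = 0.79), and the call was also lost without Tnf replicate 2 (adjusted p = 0.0532), TnfSnxB replicate 2 (0.0521) or TnfSnxB replicate 3 (0.156). The TNFα effect in the presence of Senexin B was -0.33 for NOTCH1 (adjusted p = 0.0138) and -0.25 for NOTCH3 (adjusted p = 0.0167). After the correction these were -0.16 (adjusted p = 0.258) and -0.08 (adjusted p = 0.581), without TnfSnxB replicates 2 and 3 they were -0.08 (adjusted p = 0.886) and -0.12 (adjusted p = 0.758), and both calls were lost in 6 of 20 alternatives. Single libraries whose omission ended the call were SnxB replicate 2 for NOTCH1 (adjusted p = 0.0903) and SnxB replicate 3 for NOTCH3 (0.128), and for both genes TnfSnxB replicate 2 (0.052 and 0.0621) and TnfSnxB replicate 3 (0.168 and 0.15).

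JAG1, the ligand of the 10, passed the test in no comparison. Its level was 30.3, 34.2 and 25.6 CPM in Ctrl, 30.1, 30.0 and 28.7 CPM in SnxB, 27.1, 29 and 27.7 CPM in Tnf, and 27.4, 27.7 and 25.4 CPM in TnfSnxB. The Ctrl libraries spanned the whole range of the Tnf and SnxB libraries. JAG1 had a log2 fold change of -0.08 for TNFα alone (interval -0.23 to 0.07, adjusted p = 0.801) and -0.01 for Senexin B alone (interval -0.18 to 0.16, adjusted p = 0.977). An antisense gene, AL050403.2, overlaps 0.85% of the JAG1 exons in GENCODE 29, and the strand setting of the counting is not given in the sources used here.

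**Figure D4:**
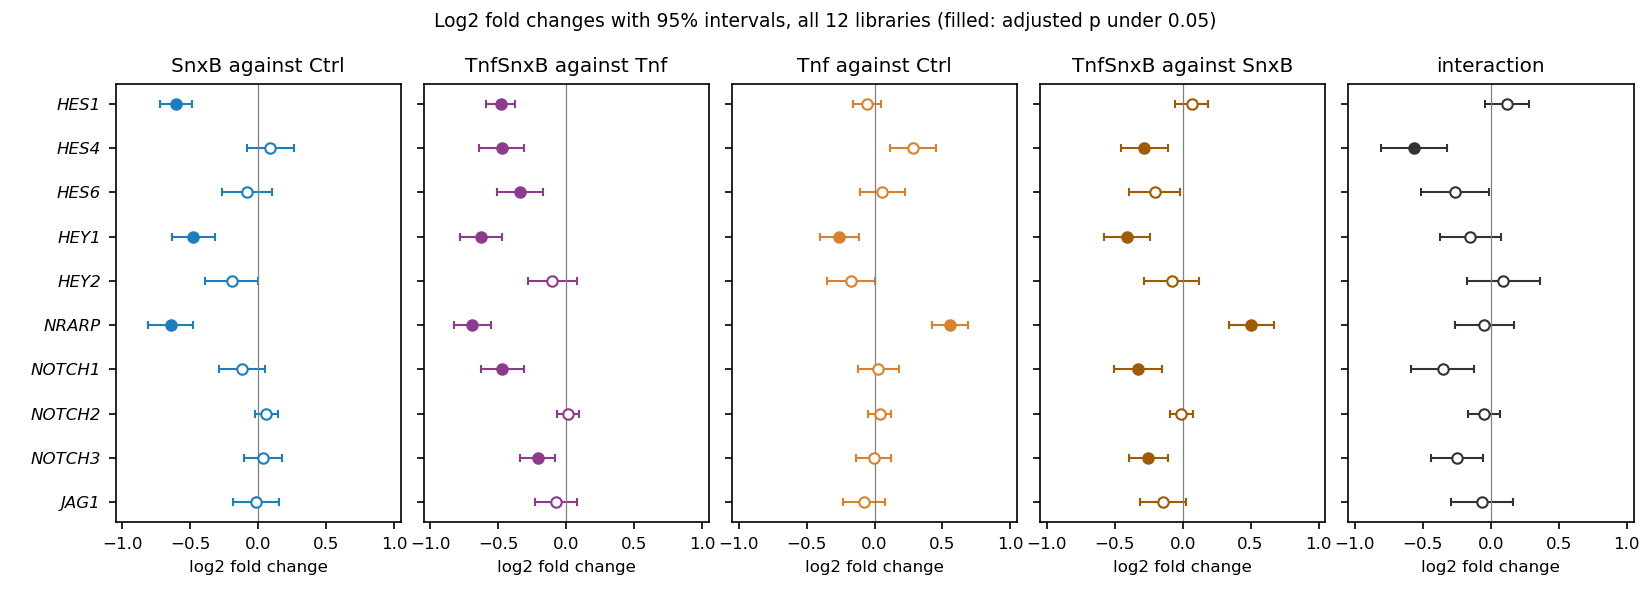
Log2 fold change with its 95% interval (x axis) for each Notch pathway gene (y axis) in the 4 simple comparisons and the interaction, from the fit to all 12 libraries, with filled points for an adjusted p under 0.05. HES1, HEY1 and NRARP are filled for Senexin B in both contexts, and NRARP is the 1 gene filled to the right of 0, in both TNFα comparisons.

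Without TnfSnxB replicates 2 and 3 the Senexin B effect in TNFα-treated cells was -0.43 for HES1 (SE 0.078, adjusted p = 4e-05), -0.67 for HEY1 (SE 0.102, adjusted p = 5.54e-07) and -0.60 for NRARP (SE 0.085, adjusted p = 5.72e-08) on the log2 scale. The TNFα effect in the presence of Senexin B was 0.60 for NRARP (adjusted p = 1.49e-05) and -0.45 for HEY1 (adjusted p = 0.00885) in the same fit, in which TnfSnxB replicate 1 is assumed to vary like the libraries of the other groups. After correction for GC content and length, with all 12 libraries, the Senexin B effect with TNFα was -0.45 for HES1 (adjusted p = 5.37e-11) and -0.64 for HEY1 (adjusted p = 2.37e-11). NOTCH2 (0.05), HEY2 (-0.15) and JAG1 (-0.05) stayed uncalled for Senexin B with TNFα without those replicates, as with all 12 libraries.

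**Figure D5:**
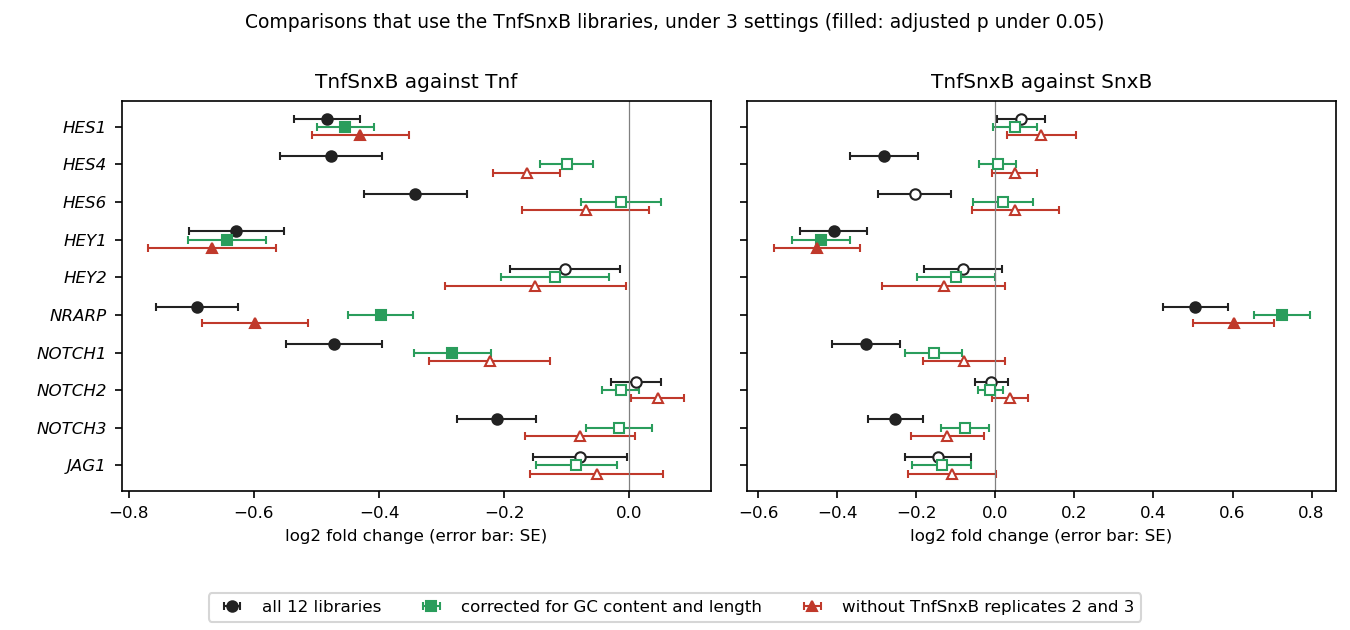
Log2 fold change with its SE (x axis) for each Notch pathway gene (y axis) in the comparisons that use the TnfSnxB libraries, from all 12 libraries (circles), after correction for GC content and length (squares) and without TnfSnxB replicates 2 and 3 (triangles), with filled points for an adjusted p under 0.05. HES1, HEY1 and NRARP stay filled in the left panel under all 3 settings, while HES4, HES6 and NOTCH3 move toward 0 and lose the fill.

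The interaction asks whether the response to Senexin B differed between cells with and without TNFα. It was called for HES4, 1 of the 10 genes, where 2.5% of all tested genes were called. The HES4 interaction was -0.57 on the log2 scale (SE 0.118, interval -0.81 to -0.32, adjusted p = 0.0265). It was -0.16 after correction for GC content and length (adjusted p = 0.336) and -0.25 without TnfSnxB replicates 2 and 3 (adjusted p = 0.121), and the call was lost in 13 of 19 alternatives, 10 of which left out 1 library (any Ctrl, SnxB, Tnf or TnfSnxB library other than Ctrl replicate 2 and TnfSnxB replicate 1, with adjusted p from 0.0605 to 0.113). Without TnfSnxB replicate 1, the library kept in the fit just given, 4 of the 10 genes were called lower, HES4 (-0.75, adjusted p = 5.97e-21), NOTCH1 (-0.46, adjusted p = 0.000132), HES6 (-0.35, adjusted p = 0.00607) and NOTCH3 (-0.30, adjusted p = 0.00523), where 30% of all tested genes were called. HES1 had an interaction of 0.12 (interval -0.04 to 0.28, adjusted p = 0.358) and HEY1 of -0.15 (interval -0.37 to 0.07, adjusted p = 0.412). For these genes no difference in the Senexin B effect between cells with and without TNFα was detectable.

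A wider list held 70 other genes of the Notch pathway, from ligands and glycosyltransferases to corepressors and further targets, and 62 of them had enough counts to be tested. Among the untested were the DLL4 ligand and HES2, HES3, HES5 and HES7. With Senexin B alone 4 of the 62 were called lower and none higher (6.45%, against 2.03% of all tested genes called in either direction), and the median log2 fold change was 0.01. Those that fell were MYC (log2 -2.33, SE 0.073, adjusted p = 4.29e-20), a growth-promoting transcription factor that Notch can activate, CCND1 (log2 -0.48, SE 0.066, adjusted p = 1.57e-05), which encodes cyclin D1, SPEN (log2 -0.20, SE 0.032, adjusted p = 0.000159), which encodes an RBPJ corepressor, and TLE3 (log2 -0.19, SE 0.050, adjusted p = 0.0308), a Groucho-family corepressor that HES proteins recruit. The TLE3 call was lost without Ctrl replicate 1 (adjusted p = 0.178), Ctrl replicate 2 (0.133), SnxB replicate 1 (0.0808), SnxB replicate 2 (0.117), SnxB replicate 3 (0.196), Tnf replicate 2 (0.0518) or Tnf replicate 3 (0.0521). It was kept after correction for GC content and length (log2 -0.21, adjusted p = 9.16e-05) and without TnfSnxB replicate 1 (log2 -0.19, adjusted p = 7.9e-05). MYC fell from 91.1 ± 4.00 CPM in Ctrl to 18.0 ± 0.789 CPM in SnxB (SD, n = 3), and from 90.5 ± 2.28 CPM in Tnf to 21.9 ± 2.82 CPM in TnfSnxB. The count for Senexin B alone depended on the setting. After correction for GC content and length 8 of 62 were called, 2 higher and 6 lower (12.9%, against 4.43% of all tested genes). With only the groups compared 9 of 62 were called, 3 higher and 6 lower (14.5%, against 5.19%).

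TNFα alone called 1 of the 62 (1.61%, against 2.02% of all tested genes), SPEN, which rose by a log2 value of 0.14 (SE 0.031, adjusted p = 0.0117) from 551 ± 11.1 to 605 ± 8.45 CPM. That call was lost without Ctrl replicate 1 (adjusted p = 0.117), Tnf replicate 1 (0.097) or Tnf replicate 2 (0.0639). It was kept after correction for GC content and length (log2 0.106, adjusted p = 0.00381) and without TnfSnxB replicate 1 (log2 0.135, adjusted p = 5.37e-07). In TNFα-treated cells Senexin B called 20 of the 62, 6 higher and 14 lower, with a median of -0.04. That was a share of 32.3% against 27.2% of all tested genes. After correction for GC content and length the shares were 17.7% and 12.2%. The share of all tested genes also fell without TnfSnxB replicates 2 and 3. The count was 11 after correction for GC content and length and 3 of 65 tested without TnfSnxB replicates 2 and 3. The smallest adjusted p-values were those of MYC (log2 -2.06, SE 0.066), CCND1 (log2 -0.59, SE 0.061), ITCH (log2 0.38, SE 0.059), a ubiquitin ligase for NOTCH, and CDKN1A (log2 -0.42, SE 0.067), the cell cycle inhibitor p21. Without TnfSnxB replicates 2 and 3 the ITCH value was 0.18 (adjusted p = 0.202) and the CDKN1A value -0.27 (adjusted p = 0.158), whereas MYC (-1.84) and CCND1 (-0.52) kept their calls. After correction for GC content and length all 4 were called, ITCH at 0.19 (adjusted p = 0.00115) and CDKN1A at -0.28 (adjusted p = 0.000421). TNFα in the presence of Senexin B called 18 of the 62, 9 higher and 9 lower (29%, against 14.2% of all tested genes), which became 7 after the correction and 3 of 65 without TnfSnxB replicates 2 and 3. After the correction that was 11.3% of the list against 5.03% of all tested genes, and the latter share also fell without those replicates. JAG2 encodes a second Jagged ligand and TLE4 another Groucho-family corepressor. The smallest adjusted p-values were those of ITCH (log2 0.35), JAG2 (log2 -0.36), SPEN (log2 0.14) and TLE4 (log2 0.27). Of these 4, SPEN (0.17, adjusted p = 0.000338) and TLE4 (0.30, adjusted p = 0.0409) kept their call without TnfSnxB replicates 2 and 3, and ITCH (0.17, adjusted p = 0.421) and JAG2 (-0.14, adjusted p = 0.495) did not. After the correction all 4 kept it, with ITCH at 0.23 (adjusted p = 0.0016) and JAG2 at -0.17 (adjusted p = 0.0115).

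For the 3 genes that Senexin B lowered in both contexts, the genes with the most similar pattern were sought by Pearson's correlation of log2 CPM over the 12 libraries among 11357 genes averaging at least 5 CPM. The points are 4 groups of 3 libraries that share their scaling, and the values are a description. The closest to HES1 were HSPA8 (0.995), MYC (0.992) and HSPA1A (0.987), of which HSPA8 and HSPA1A encode HSP70 chaperones, and HSPA1A has a near-identical copy, HSPA1B, so its counts are uncertain. HSPA1A went from 498 ± 21.7 CPM in Ctrl to 177 ± 3.73 CPM in SnxB and from 526 ± 12.3 CPM in Tnf to 195 ± 12.9 CPM in TnfSnxB. The closest to NRARP were SPEN (0.973), the immediate-early gene IER5 (0.964) and TAF4B (0.961), a TFIID subunit. TAF4B was at 50 ± 2.15 CPM in Ctrl, 41.6 ± 1.66 in SnxB, 63.6 ± 1.49 in Tnf and 50 ± 1.88 in TnfSnxB, with Tnf highest and SnxB lowest as for NRARP. The closest to HEY1 were CTGF (0.954), which encodes a matricellular protein, IGFBP5 (0.944), an IGF-binding protein, and SLC2A1 (0.943), the glucose transporter GLUT1. IGFBP5 stepped down from 82.9 ± 2.68 CPM in Ctrl through 67.3 ± 0.257 in Tnf and 55.7 ± 2.37 in SnxB to 47.4 ± 1.71 in TnfSnxB, the same order of groups as HEY1. Over the 10 libraries without TnfSnxB replicates 2 and 3 these 9 correlations were between 0.914 and 0.994.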

How the data were processed

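Transcript levels were measured by bulk RNA sequencing (Illumina TruSeq RNA kit) in 12 HEK293 libraries, 3 in each of 4 groups taken from the labels. The authors deposited 1 table of raw counts per gene symbol with no normalization. Per the submitters' processing notes the tools were STAR 2.4, SAMtools 1.2 and featureCounts of Subread 1.4.6 with build hg38 (GRCh38). Annotation, strand setting and read length were not given in the sources used here. Overlapping or near-identical genes may therefore be miscounted.

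Genes were filtered with filterByExpr (edgeR 4.0.16, R 4.3.3), which kept 14822 of 56634; the removed genes carried no more than 0.181% of any library. After TMM scaling, the edgeR quasi-likelihood model was fitted with group means over all 12 libraries. Tests were two-sided, with Benjamini-Hochberg adjustment over all 14822 genes and calls at an adjusted p under 0.05. SE is the size of the log2 fold change over the square root of F. The biological coefficient of variation was 3.49%, and 3 counts equalled 0.0595 to 0.342 CPM. CPM values are TMM-scaled, and CPM per kb uses exon lengths from GENCODE 29, matched by symbol for 13419 of 14822 genes (90.5%), which also gave GC content. Promoter windows are from RefSeq (GRCh38.p14).

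The members and gene lists were chosen with earlier results of these data known. The named genes were all members, up to 4 called pathway genes with the smallest adjusted p per comparison, and the 3 most similar genes for each of HES1, NRARP and HEY1. A gene of the wider list that this rule names is not reported here. Alternatives were size factors by RLE, DESeq2 1.42.0, a fit without the low-count filter, a fit to only the 2 groups compared, a replicate block, offsets for GC content and length (loess, span 0.3), Tnf replicate 2 thinned to 10463233 counts, TnfSnxB without replicates 2 and 3, and each library left out. The code was tested on simulated data. Figures were drawn with matplotlib 3.10.9 (Python 3.11.15).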

Additional observations from a re-analysis of the deposited data

Results flagged for a closer look

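The Senexin B effect differed between cells with and without TNFα in the edgeR interaction test for HES4 and for ITCH, a gene of the wider Notch list. HES4 had an interaction of -0.565 on the log2 scale (adjusted p = 0.0265), from 0.09 without TNFα to -0.48 with it. ITCH, a ubiquitin ligase, had 0.337 (adjusted p = 0.0405), which was 0.157 after correction for GC content and length and 0.146 without TnfSnxB replicates 2 and 3. The call was lost for both genes under both alternatives, and for ITCH also without any 1 library other than TnfSnxB replicate 1 (adjusted p from 0.05 to 0.166).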

How the results depend on the processing

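Of 990 values of the 10 genes under the alternatives, 925 kept direction and side of the threshold or stayed uncalled, 50 lost a call, 13 gained one and 2 reversed. The Senexin B falls of HES1, HEY1 and NRARP and the NRARP rise with TNFα held throughout. The reversals were HES4 for TNFα with Senexin B (0.00561 with GC content and length offsets, 0.0488 without TnfSnxB replicates 2 and 3). Members called for TNFα alone were 2 as reported and 1 with DESeq2, with the replicate block and with Tnf replicate 2 thinned, and 3 with no low-count filter, with only the groups compared, with the offsets and without TnfSnxB replicates 2 and 3. For Senexin B with TNFα they were 7, and 4 with the offsets and 3 without TnfSnxB replicates 2 and 3. For TNFα with Senexin B they were 5, and 2 with only the groups compared, with the offsets and without those replicates. For the interaction they were 1, and 0 with DESeq2, with the offsets and without those replicates, and 2 with no low-count filter. The cause of these changes was not tested. Leaving out 1 library gave 1 to 3, 2 to 6 and 0 to 4 members for TNFα alone, TNFα with Senexin B and the interaction. Over all genes, calls for TNFα alone were 300, and 776 with only the groups compared, 563 with the offsets and 858 without TnfSnxB replicates 2 and 3 (177 to 874 with 1 library left out). For Senexin B alone they were 301, and 742, 657 and 864 in the same order (172 to 879). For Senexin B with TNFα they were 4029, and 2442, 1803 and 403 (1869 to 6769). For TNFα with Senexin B they were 2106, and 504, 746 and 219 (512 to 5391). For the interaction they were 370, and 711 with no low-count filter, 736 with the replicate block, 51 with the offsets and 19 without those replicates (3 to 4534). The highest of each leave-one-out range came without TnfSnxB replicate 1. Libraries that share a replicate number did not deviate together (18 pairs, correlations from -0.0386 to 0.0868), so the replicate block rests on a shared number only; beyond the HEY1 call for TNFα alone it ended no call of a member. The offsets were fitted on the 13419 genes with a known GC content, and fewer genes and libraries enter some alternatives by construction. HEY2, with the lowest counts, is the gene whose intervals depth widens most.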

Other observations

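The following genes of the wider list were singled out after their values were seen. CDK8 and CDK19, the kinases that Senexin B inhibits, were at 39.0 ± 1.39 and 27.6 ± 1.31 CPM in Ctrl and at 38.1 ± 1.55 and 27.2 ± 1.59 CPM in SnxB (SD, n = 3). Neither passed the edgeR test for Senexin B alone (log2 -0.04, adjusted p = 0.923 for CDK8 and log2 -0.01, adjusted p = 0.975 for CDK19). With TNFα present, Senexin B called CDK19 (log2 0.19, adjusted p = 0.0408) and the module genes CCNC (0.22, adjusted p = 0.0106) and MED13 (0.27, adjusted p = 6.04e-05) higher, and TNFα in the presence of Senexin B called the same 3 higher (0.28, 0.22 and 0.15). None of these calls held after correction for GC content and length (adjusted p of 0.0606 or more). Without TnfSnxB replicates 2 and 3 the Senexin B values with TNFα were -0.04 for CDK19, -0.01 for CCNC and 0.15 for MED13. The TNFα values with Senexin B were then 0.05, -0.02 and 0.03. For Senexin B alone MED13 was not called in the main fit. After the correction it was called at 0.125 (adjusted p = 0.0145), and without TnfSnxB replicates 2 and 3 its log2 value was 0.154. MED13 was at 163 ± 5.13 CPM in Ctrl and 181 ± 2.29 CPM in SnxB. RBPJ, the DNA-binding partner of the NOTCH intracellular domain, was at 119 ± 4.76 CPM in Ctrl, 119 ± 1.78 in SnxB, 118 ± 4.55 in Tnf and 127 ± 9.15 in TnfSnxB, and passed the test in none of the 4 simple comparisons. HEYL, the remaining HEY gene, was at 10.4 ± 1.97 CPM in Ctrl and 10.2 ± 1.01 CPM in SnxB (log2 -0.03, adjusted p = 0.964). NOTCH4 was the least expressed receptor at 1.01 ± 0.277 CPM in Ctrl, and its log2 fold changes had SEs of 0.327 to 0.42, so only large changes could have been detected.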
